A study of Mus musculus with 13 samples.

Results

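The 83 genes described here encode the nuclear subunits of the mitochondrial respiratory chain and of ATP synthase that could be measured by name, of 19938 named genes in all. They were chosen by gene symbol and not by a cut on their values, though earlier results of these data were known. There were 35 genes of complex I, 4 of complex II and 9 of complex III (Cyc1 and the Uqcr genes). Complex IV had 17 (Cox4 to Cox8 and their isoforms) and complex V had 18, counting Atpif1. Each gene was read from its brightest probe set, which is a group of array probes for 1 transcript. Genes that the same symbols cover but that had no probe set of a single gene name, such as Ndufb1, Ndufb4 and Cox7c, were not analysed here. The livers came from male wild-type C57BL/6N mice aged 5 to 6 months. Of these, 6 mice had been injected with streptozotocin (STZ), a toxin of insulin-producing beta cells that is used to model type 1 diabetes, at 65 mg/kg on 5 consecutive days. The 7 controls were mock-injected with the citrate buffer according to their labels, while the series text describes the controls by a standard diet. Treatment began at 10 to 16 weeks of age, and livers were collected 9 to 11 weeks after it. No glucose or insulin value of the animals was used here, so the degree of diabetes of each mouse is not given. The series asks how liver mitochondria adapt to diabetic states, and the comparison below asks whether the transcripts of their energy-converting machinery differ between the groups.

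Complex I takes electrons from NADH and complex II takes them from succinate. Both pass them through ubiquinone to complex III, which hands them to cytochrome c, and complex IV transfers them to oxygen. Complexes I, III and IV pump protons across the inner membrane, and complex V, the ATP synthase, uses the returning protons to make ATP. The complexes other than complex II also contain subunits encoded in mitochondrial DNA, so their assembly draws on both genomes. The liver uses this ATP for gluconeogenesis and urea synthesis.

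The values are log2 RMA intensities, that is, background-corrected signals brought to a common distribution on all arrays. A change in total cellular RNA would therefore not be seen, and differences are relative to the other genes on the array. The array medians lay between 6.22 and 6.31. The subunit genes were bright, with 73 of 83 among the brightest 4985 of all named genes and 58 above the 90th percentile, where probes near saturation can compress differences. Of the hepatocyte markers measured, Alb, Ttr, Apoa1 and Ahsg all lay above the 99.9th percentile. Log2 intensities have no zero, so no marker can be called absent. Markers of Kupffer cells and other macrophages moved with the treatment: 4 of 8 were higher in STZ livers, with list means of 8.49 to 8.91 in controls and 8.64 to 9.28 in STZ. Of the other marker lists, 1 of 8 endothelial genes was higher, 2 of 8 stellate genes were higher and 1 lower, and 2 of 4 hepatocyte genes (Ttr and Apoa1) and 1 of 5 adipocyte genes were lower. None of 5 cholangiocyte, 6 lymphocyte or 6 muscle genes passed in limma. Genes with an unadjusted p under 0.05 numbered 1, 0 and 4 in these lists. In the other lists they were 7 of 8 macrophage, 4 of 8 endothelial, 3 of 8 stellate, 3 of 4 hepatocyte and 2 of 5 adipocyte genes. Over all named genes 9.12% passed in limma and 20.8% had such an unadjusted p. In whole liver, a change in the number of cells of a type and a change in RNA per cell cannot be told apart, and the part of these markers in the results below was not tested.

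Control replicate 2 and STZ replicates 1 and 2 stood apart for the subunit genes. In control replicate 2, 37 of the 83 genes had the lowest and 22 the highest value of the 7 controls, shares of 44.6% and 26.5%. Over all named genes this array held the lowest value for 17.7% and the highest for 18.4%. Among the brightest 4985 genes it held them for 31.3% and 19.4%. It lay more than 0.2 log2 units from the mean of the other controls for 36 of the 83 genes, 26 of them below and 10 above, against 3 to 7 genes in each other control. The genes furthest below were Ndufb6 (-0.82), Ndufa4 (-0.76), Atp5mpl (-0.75) and Ndufa1 (-0.73), and the gene furthest above was Uqcr11 (0.54). In STZ replicate 2 most of the genes were low together, with 44 of 83 at the lowest value of the 6 STZ arrays and a median deviation of -0.12. The same array held the lowest value for 20.4% of all named genes and for 37.2% of the brightest 4985. In STZ replicate 1, 37 of the 83 genes (44.6%) had the highest value of the 6 STZ arrays and 1 the lowest. That array held the highest value for 16.7% of all named genes and for 14.6% of the brightest 4985. What sets these arrays apart was not tested. Leaving out control replicate 2 gave the difference between the groups another sign for 15 of the 83 genes, and changed its sign or moved it by over 1.5 times for 40. Without STZ replicate 2 these counts were 11 and 39, and without both arrays 18 and 52. The same counts were not made for other single arrays or for all named genes, so they do not show that these arrays are exceptional. The counts of calls and of limits and the shifts by complex are therefore given with and without control replicate 2 and STZ replicate 2. Both sets of values keep STZ replicate 1.

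**Figure D1:**
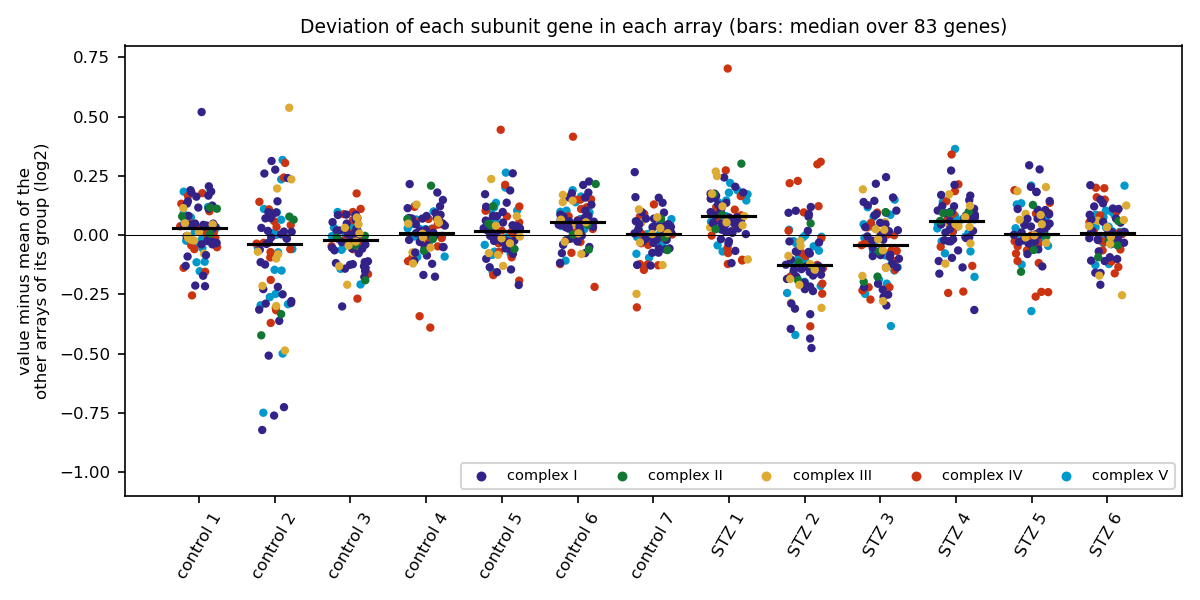
Each point is 1 of the 83 subunit genes in 1 of the 13 arrays, and the vertical axis gives its log2 value minus the mean of the other arrays of its group, with colours for the complexes and bars for the median over the genes. Control replicate 2 has the widest spread, from -0.82 to 0.54, and STZ replicate 2 has the lowest median, -0.12.

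Transcripts of the respiratory chain and ATP synthase differed little between the livers of STZ and control mice. Of the 83 genes, 2 were higher in STZ livers (Atpif1 and Ndufa7) and 1 was lower (Ndufb3) at an adjusted p under 0.05 in limma, a linear model fitted over all 19938 genes. This is 3.61% of the subunit genes, where 9.12% of all named genes passed (5.09% higher and 4.04% lower). Among the brightest 4985 genes 19.4% passed, and 2 of the 73 subunit genes among them did (2.74%). At an unadjusted p under 0.05 there were 6 subunit genes, 3 higher and 3 lower (7.23%, where 20.8% of all genes had such a p). In an exact rank-sum test 1 subunit gene passed, Atpif1, where 5.46% of all genes did. The median difference over the 83 genes, STZ minus control, was 0.028 on the log2 scale, and over all genes it was -0.0063. The direction was positive for 49 genes and negative for 34. Without control replicate 2 and STZ replicate 2 there were 4 genes, Atp5g1 joining the other three (adjusted p = 0.0470 in limma), where 7.36% of all genes passed. In that fit 10 subunit genes had an unadjusted p under 0.05, where 20.3% of all genes did, and 51 differences were positive and 32 negative.

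The precision of the arrays sets what can be said of the genes that did not pass. The standard error of a subunit gene's difference was 0.043 to 0.12 on the log2 scale, with a median of 0.063. For 65 of the 83 genes (78.3%) the 95% limits of the difference lay wholly inside a 1.2-fold change in either direction, where this held for 66.4% of all genes and 54.2% of the brightest 4985. For 82 of the 83 the limits lay inside a 1.5-fold change, where this held for 94.5% of all genes and 88.8% of the brightest 4985. The exception was Atpif1. Without control replicate 2 and STZ replicate 2 the limits of 72 genes lay inside 1.2-fold and those of 82 inside 1.5-fold, where 62.2% and 94.3% of all genes did.

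**Figure D2:**
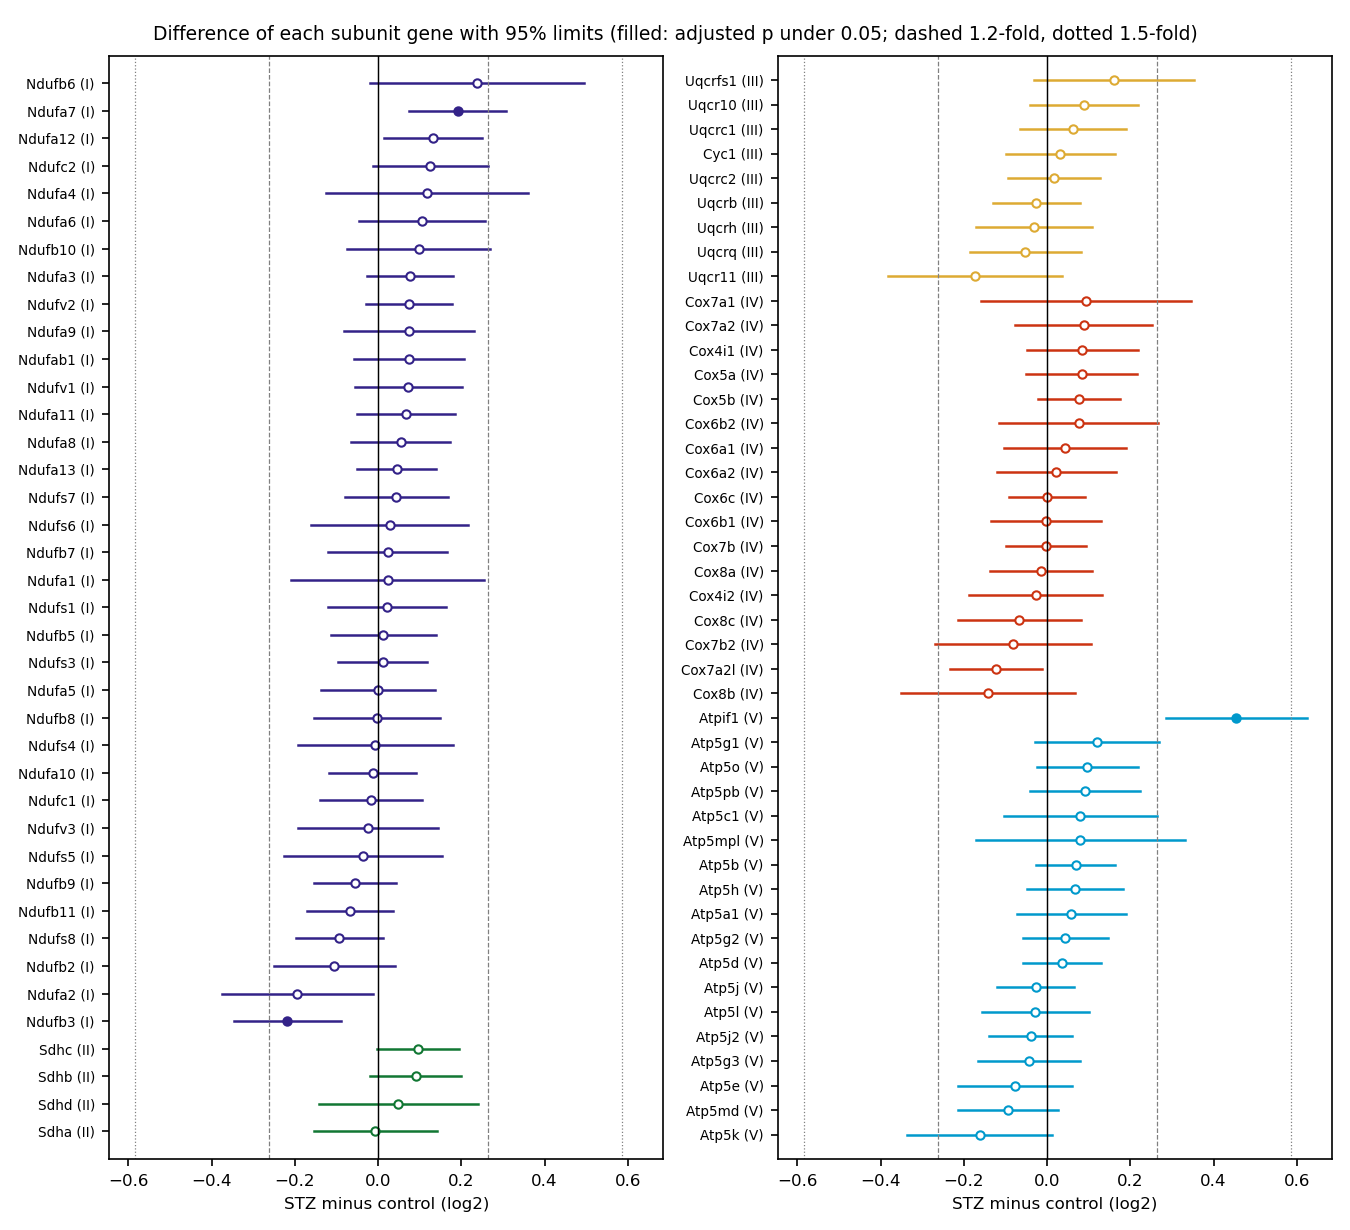
The difference of each of the 83 genes, STZ minus control in log2 units, is drawn as a point with its 95% limits from the limma fit, grouped and coloured by complex, with the complex in brackets after the gene. Filled points passed at an adjusted p under 0.05, and only Atpif1 has a limit beyond the dotted 1.5-fold lines.

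**Figure D3:**
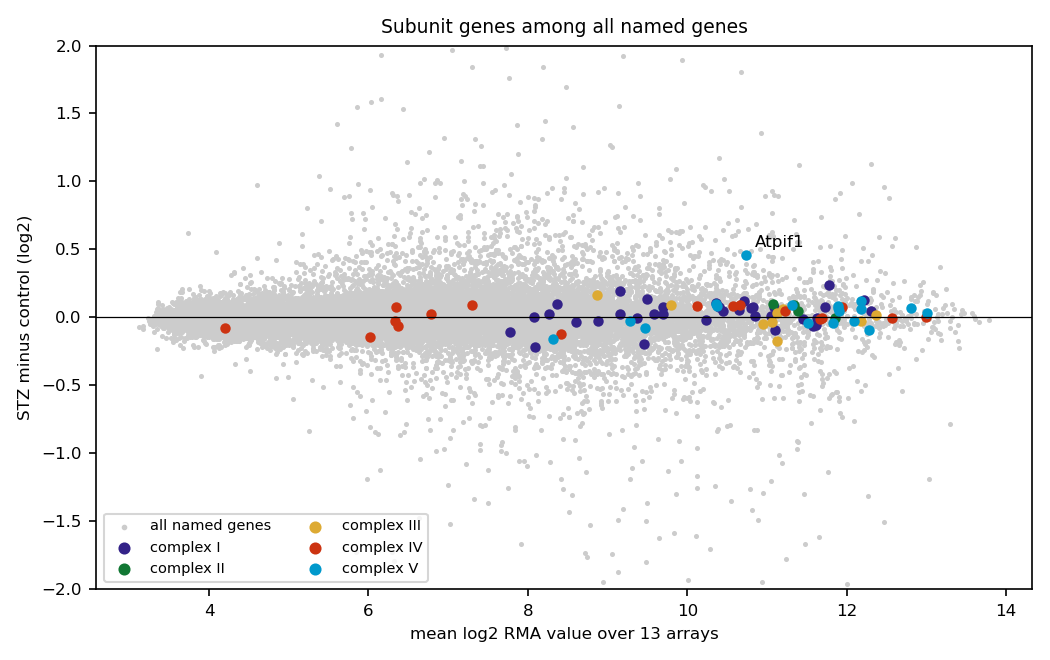
Each point is a named gene, with its mean log2 RMA value over the 13 arrays on the horizontal axis and its STZ minus control difference on the vertical axis, and the 83 subunit genes are coloured by complex. The subunit genes lie between -0.22 and 0.45 and mostly at the bright end, and 31 of all named genes fall outside the drawn range of -2 to 2.

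The mean over the genes of a complex was taken in each array, and its shift is given with 95% limits obtained by inverting an exact permutation of the arrays over all 1716 splits. Over all 83 genes the array means were 10.27 to 10.39 in controls (median 10.35) and 10.28 to 10.44 in STZ livers (median 10.38), so the groups overlapped. The shift was 0.024 (limits -0.036 to 0.083), a ratio of 1.02 (0.975 to 1.06). For complex I the shift was 0.025 (-0.043 to 0.091), for complex II 0.057 (-0.036 to 0.15), and for complex III 0.0087 (-0.062 to 0.074). For complex IV it was 0.0065 (-0.044 to 0.057), and 0.029 (-0.036 to 0.094) over its genes brighter than the median of all genes. Ndufa4 was placed in complex I by its symbol alone. With Ndufa4 counted in complex IV, the shift was 0.022 (-0.044 to 0.084) for complex I and 0.013 (-0.043 to 0.067) for complex IV. For complex V it was 0.040 (-0.028 to 0.11), and without Atpif1 it was 0.016 (-0.054 to 0.089). These limits included 0 and lay inside a 1.2-fold change in either direction. With the median over genes in place of the mean in each array, the limits left out 0 for all 83 genes (shift 0.085, limits 0.018 to 0.16) and for complex I (0.11, 0.0025 to 0.23). Without control replicate 2 and STZ replicate 2 the shift of the means was 0.030 (-0.014 to 0.074) over all 83 genes, 0.033 (-0.010 to 0.075) for complex I and 0.051 (-0.031 to 0.14) for complex II. It was then 0.030 (-0.022 to 0.084) for complex III, 0.0055 (-0.058 to 0.066) for complex IV and 0.043 (-0.010 to 0.095) for complex V. Without STZ replicate 1 alone, the shift over all 83 genes was 0.0099 (-0.049 to 0.067). Differences between complexes were not tested.

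Some single arrays were high or low in several complexes at once, but complex IV often differed. Control replicate 2 had the lowest control mean in complexes I, II, III and V, and control replicate 4 the lowest in complex IV (9.09). STZ replicate 5 was above the STZ median in complexes I (10.24) and III (11.03) and below it in complex IV (9.09). Correlation between complexes was not tested. STZ replicate 1 had the highest STZ mean in all 5 complexes, 10.26 for complex I, 11.57 for complex II, 11.05 for complex III, 9.19 for complex IV and 11.41 for complex V. STZ replicate 2 had the lowest STZ mean in complexes I, II, III and V, 10.08, 11.36, 10.84 and 11.23, and STZ replicate 3 the lowest in complex IV, 9.07. The standard deviation of the array mean was larger in STZ livers than in controls in each complex, 0.063 against 0.048 for complex I, 0.078 against 0.026 for complex III and 0.065 against 0.047 for complex V. This difference in spread was not tested.

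**Figure D4:**
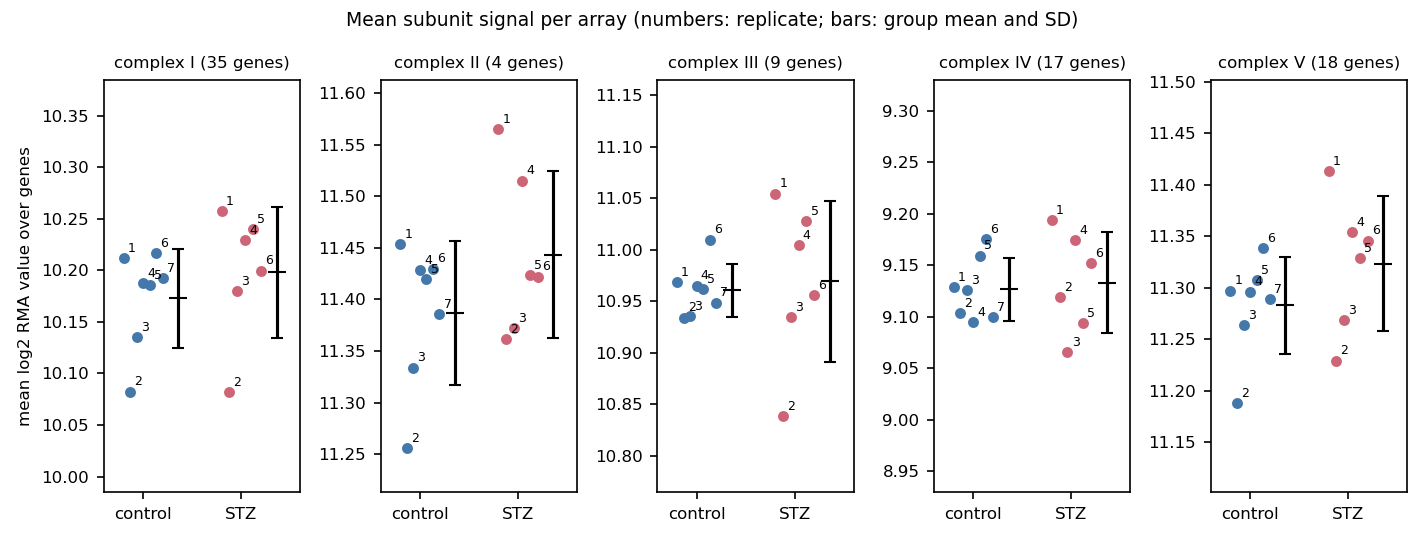
The mean log2 RMA value over the genes of each complex is plotted per array for 7 controls (blue) and 6 STZ livers (red), with replicate numbers beside the points, black bars for the group mean and SD, and a vertical range of the same width in every panel that does not start at 0. The groups overlap in all 5 complexes, and STZ replicate 1 is the highest STZ array in each.

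In complex V the inhibitor was the gene that changed. Atpif1 encodes the inhibitory factor IF1, a small matrix protein that binds the F1 head of ATP synthase and blocks ATP hydrolysis when the proton gradient collapses. Its log2 value was 10.43, 10.54, 10.50, 10.60, 10.64, 10.44 and 10.55 in control replicates 1 to 7 and 10.95, 10.82, 10.97, 11.29, 10.72 and 11.16 in STZ replicates 1 to 6. All 6 STZ livers lay above all 7 controls, which held for no other subunit gene in either direction, while 3.86% of all named genes had groups that did not overlap. Atpif1 rose from 10.53 ± 0.079 (SD, n = 7) to 10.98 ± 0.21 (SD, n = 6), a difference of 0.45 ± 0.080 (SE of the fit; limits 0.29 to 0.62), or 1.37-fold (1.22 to 1.54), with an adjusted p of 0.00164 in limma. With each of the 13 arrays left out in turn it always passed (adjusted p = 0.000284 to 0.00501 in limma). Set against the catalytic subunit genes in the same array, Atpif1 minus Atp5b was -2.36 to -2.12 in controls and -2.12 to -1.55 in STZ livers, a shift of 0.39 with exact permutation limits of 0.21 to 0.57. Against Atp5a1 the shift was 0.40 (0.18 to 0.62). These are differences in signal between probe sets and not molar ratios.

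None of the 17 structural genes of ATP synthase passed with all arrays. The 5 genes of the catalytic head and central stalk, Atp5a1 and Atp5b (the alpha and beta subunits), Atp5c1, Atp5d and Atp5e, differed by -0.076 to 0.080, with a median of 0.058. Atp5b, which carries the catalytic sites, was 12.72 to 12.81 in controls (median 12.77) and 12.74 to 12.93 in STZ livers (median 12.83), and 5 of 6 STZ livers lay above all controls. Its difference was 0.069 ± 0.045 (limits -0.026 to 0.16). Atp5a1 differed by 0.058 ± 0.062 (-0.072 to 0.19), and by 0.017 without control replicate 2. The c-ring, which turns as protons pass, is encoded by 3 genes for the same mature protein, and these differed by 0.12 (Atp5g1), 0.044 (Atp5g2) and -0.043 (Atp5g3). Atp5g1 was 0.12 ± 0.070 with all arrays and 0.20 ± 0.057 without control replicate 2 and STZ replicate 2, where it passed. The 4 peripheral stalk genes, Atp5pb, Atp5h, Atp5j and Atp5o, which hold the head still, differed by -0.027 to 0.097. Among the other membrane subunits, Atp5k had the largest difference, -0.16 ± 0.082 (-0.34 to 0.013). It was -0.091 without STZ replicate 2 and -0.058 without control replicate 2 as well.

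Complex I held both other genes that passed, and they went in opposite directions. Ndufa7, an accessory subunit of the part of the peripheral arm that reduces ubiquinone, was 8.97 to 9.19 in controls (median 9.07) and 9.15 to 9.40 in STZ livers (median 9.26). Of the STZ livers 4 of 6 lay above all controls. The difference was 0.19 ± 0.055 (limits 0.075 to 0.31), or 1.14-fold (1.05 to 1.24), with an adjusted p of 0.0375 in limma. Ndufb3, an accessory subunit of the proton-pumping membrane arm, was 7.98 to 8.33 in controls (median 8.21) and 7.87 to 8.08 in STZ livers (median 7.96). Here 4 of 6 STZ livers lay below all controls, and all 6 below the control median. The difference was -0.22 ± 0.061 (-0.35 to -0.089), a ratio of 0.860 (0.787 to 0.940), with an adjusted p of 0.0330 in limma. Each of these calls was lost for 9 of the 13 arrays when that array was left out, while the difference stayed at 0.16 to 0.21 for Ndufa7 and -0.25 to -0.20 for Ndufb3. The call of Ndufa7 stood only without control replicate 2 or 6 or STZ replicate 5 or 6, and that of Ndufb3 only without control replicate 2 or 4 or STZ replicate 5 or 6. Otherwise the adjusted p in limma reached 0.0909 for Ndufa7 and 0.0803 for Ndufb3. With the arrays centred on their medians Ndufb3 had an adjusted p of 0.0684 in limma.

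**Figure D5:**
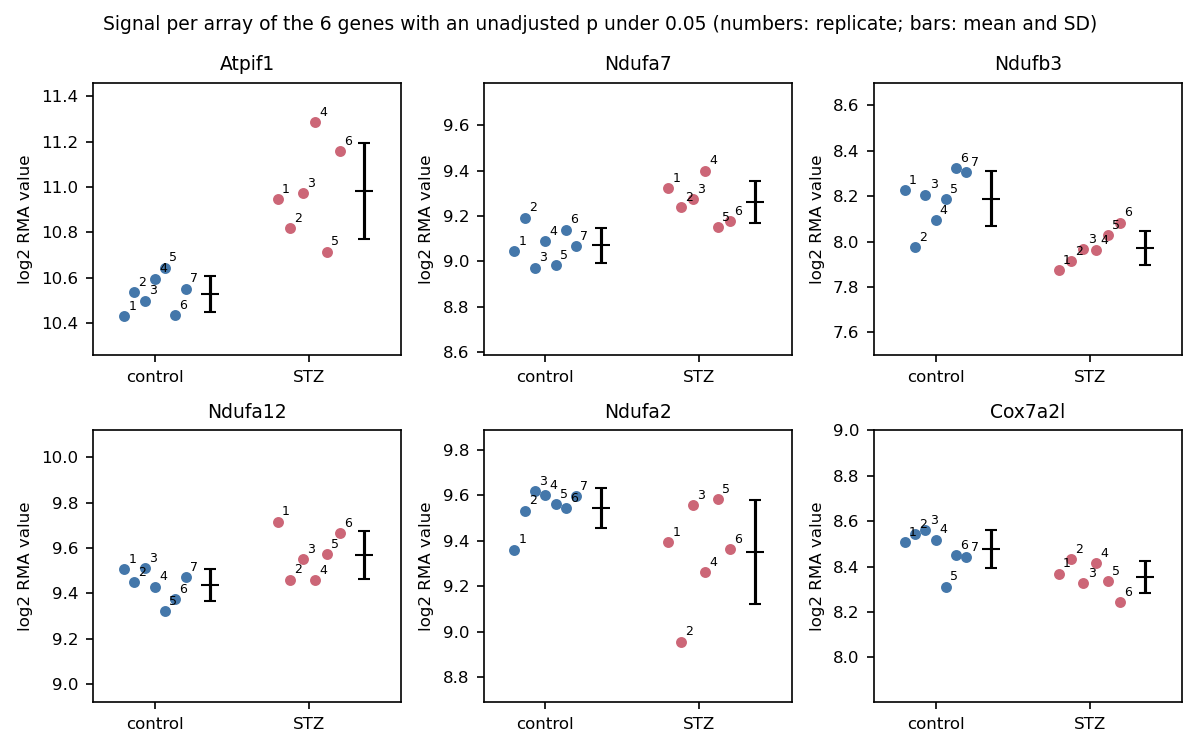
The log2 RMA value in every array is shown for the 6 subunit genes with an unadjusted p under 0.05, with 7 controls in blue, 6 STZ livers in red, replicate numbers beside the points and black bars for the group mean and SD. Every panel spans 1.2 log2 units and does not start at 0, and the groups are separate for Atpif1 alone.

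The remaining complex I genes are given by the arm they belong to. The N module oxidises NADH and holds the flavin and most iron-sulfur clusters. Its 8 genes differed by -0.19 to 0.13, with a median of 0.024, and none passed. Among them were Ndufv1 (0.073 ± 0.061, and 0.033 without control replicate 2), the flavin-binding subunit, Ndufv2 (0.075 ± 0.049) and Ndufs1 (0.021 ± 0.067, and -0.020 without that array), which carry iron-sulfur clusters. At its ends were Ndufa12 (0.13 ± 0.056), for which 4 of 6 STZ livers lay above all controls, and Ndufa2 (-0.19 ± 0.086). Ndufa2 rested on a wide STZ spread: it was 8.96 in STZ replicate 2 and 9.26 to 9.58 in the other STZ livers, against 9.36 to 9.62 in controls, and without STZ replicate 2 its difference was -0.11. The adjusted p in limma was 0.174 for Ndufa12 and 0.202 for Ndufa2.

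The 7 genes of the Q module, where ubiquinone is reduced, had a median of 0.044, and Ndufa7 was the gene that passed. The iron-sulfur subunits Ndufs7 (0.044 ± 0.058) and Ndufs8 (-0.093 ± 0.049) and the core subunit Ndufs3 (0.011 ± 0.051) did not pass. The 20 genes of the membrane arm and other accessory subunits had a median of 0.023 and included Ndufb3 and, by its symbol, Ndufa4. The largest difference of complex I was that of Ndufb6, a membrane arm subunit, at 0.24 ± 0.12 (limits -0.018 to 0.49). It was 10.97 in control replicate 2 and 11.66 to 11.89 in the other controls, against 11.66 to 12.01 in STZ livers, and without that array its difference was 0.12 ± 0.064 and did not pass either.

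Complex II, succinate dehydrogenase, is also an enzyme of the tricarboxylic acid cycle and is encoded by nuclear genes alone. Its 4 genes lay between -0.0068 and 0.095, and the limits of all 4 lay inside a 1.2-fold change. Sdha, the flavoprotein, differed by -0.0068 ± 0.070, the iron-sulfur subunit Sdhb by 0.090 ± 0.052, and the membrane anchors Sdhc and Sdhd by 0.095 ± 0.047 and 0.049 ± 0.090. Sdhc came closest to passing: it was 10.98 to 11.09 in controls and 11.03 to 11.21 in STZ livers, 4 of which lay above all controls, with an adjusted p of 0.261 in limma. None passed in limma, and 0 had an unadjusted p under 0.05. Sdha was 11.57 in control replicate 2 and 11.85 to 11.96 in the other controls, and without that array the difference was -0.054 for Sdha and -0.012 for Sdhd.

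The differences in complex III were small. With all arrays they were positive for all 4 redox and core genes and negative for 4 of 5 small accessory genes, and without control replicate 2 for 3 of 4 and 3 of 5. None of the 9 passed in limma, and 0 had an unadjusted p under 0.05. The Rieske iron-sulfur protein Uqcrfs1 differed by 0.16 ± 0.091 (limits -0.032 to 0.35), with 4 of 6 STZ livers above all controls, and by 0.091 without control replicate 2. Cytochrome c1 (Cyc1) differed by 0.032 ± 0.062, or 0.060 without that array, and the core proteins Uqcrc1 and Uqcrc2 by 0.063 ± 0.060 and 0.016 ± 0.052. Without control replicate 2, Uqcrc2 was at -0.014 and Uqcrh at 0.0027. Uqcr11, a small accessory subunit, had the lowest value, -0.17 ± 0.099 (-0.38 to 0.037), and its control replicate 2, at 11.66, was the highest of all 13 arrays. Without that array the difference of Uqcr11 was -0.096. Uqcr10 differed by 0.089 ± 0.061. Whether the core and accessory genes differ from each other was not tested.

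Complex IV is described by isoform, since several of its subunits have versions for different tissues. The 9 ubiquitous or liver isoforms, Cox4i1, Cox5a, Cox5b, Cox6a1, Cox6b1, Cox6c, Cox7a2, Cox7b and Cox8a, differed by -0.015 to 0.088 with a median of 0.043, and the limits of all 9 lay inside a 1.2-fold change. Cox4i1 differed by 0.085 ± 0.063, Cox7a2 by 0.088 ± 0.078, Cox6a1 by 0.043 ± 0.069, and Cox6c, the brightest gene of the complex, by -0.00026 ± 0.043. Without control replicate 2, Cox4i1 was at 0.040, Cox7a2 at 0.036 and Cox6a1 at -0.00050. None of the 17 genes passed in limma, and 1 had an unadjusted p under 0.05. This was Cox7a2l, described as a factor that helps to join complexes III and IV into supercomplexes, which were not measured here. It was 8.31 to 8.56 in controls (median 8.51) and 8.24 to 8.43 in STZ livers (median 8.35), all 6 of which lay below the control median. Its difference was -0.12 ± 0.052 (-0.23 to -0.011), with an adjusted p of 0.186 in limma. The second probe set of Cox7a2l, dimmer at a mean of 7.14, gave -0.15 (-0.33 to 0.039), with an unadjusted p of 0.114 in limma.

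The isoforms typical of other tissues were dim in these livers and did not differ by a call. These are Cox6a2, Cox7a1 and Cox8b of heart, skeletal muscle or brown fat, Cox4i2 of lung, and Cox6b2, Cox7b2 and Cox8c of testis. Their mean log2 values lay between 4.20 and 7.30, below the 65th percentile of all named genes, while the 9 ubiquitous or liver isoforms lay between 10.12 and 12.99. No detection call was made, so whether these signals exceed background was not tested, and differences at such levels may be compressed. The differences of the 7 genes ran from -0.14 (Cox8b, ± 0.099) to 0.093 (Cox7a1, ± 0.12). Cox7a1 was 7.94 in STZ replicate 1 and 7.03 to 7.53 in the other STZ livers. Within an array, Cox7a1 minus Cox7a2 was -3.59 to -3.09 in controls and -3.71 to -2.84 in STZ livers, a shift of 0.0044 (exact permutation limits -0.28 to 0.30). Cox4i2 minus Cox4i1 shifted by -0.11 (-0.40 to 0.14), Cox6a2 minus Cox6a1 by -0.021 (-0.25 to 0.21), and Cox8b minus Cox8a by -0.13 (-0.44 to 0.18). Since the dim partner of each pair may be mostly background, these shifts do not show whether the balance of isoforms was kept. Beside these muscle isoforms, the list mean of 6 skeletal muscle markers was 6.20 to 6.93 in controls and 5.97 to 6.28 in STZ livers, and none of the 6 passed in limma.

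Many subunit genes have near-identical processed pseudogenes, so probe sets named for 1 gene can lie at several places in the genome and share probes. Of the 83 genes, 17 had 2 to 6 probe sets, 42 in all. Of these 42 probe sets, 17 are the ones already counted above. In a limma fit over all probe sets of a single gene name 0 of the 42 passed, and 1 had an unadjusted p under 0.05. The shares over all probe sets of that fit are not given here. In the fit over all named genes they were 9.12% and 20.8%. The probe sets of a gene had differences of the same sign in 14 of the 17 genes, and within a gene they lay at most 0.056 apart. Because such probe sets can share probes, their agreement is not independent evidence. Atp5l had 6 probe sets with differences of -0.046 to 0.0073. The genes that passed, Atpif1, Ndufa7 and Ndufb3, had 1 probe set each, so probe sets could not be compared for them.

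The upstream sequence is printed for the 3 genes that passed, because they are the subunit genes with a called difference. It is also printed for Cox6a1, 1 of the 65 genes whose limits lay inside a 1.2-fold change. Sequences are from RefSeq in build GRCm38.p6, 250 bases before the annotated transcription start, 5′ to 3′ on the strand of the gene, and 68 of the 83 genes were found in that table with 73 starts. Capitals mark matches on either strand to any of 4 motifs, which are CGCATGCG (the core of the site of NRF1, a regulator of respiratory genes), CCGGAAGT (a site of ETS factors such as GABP), AAGATGGCG (YY1) and CACGTG (the E-box).
Atpif1 (chr4:132535415-132535664, - strand): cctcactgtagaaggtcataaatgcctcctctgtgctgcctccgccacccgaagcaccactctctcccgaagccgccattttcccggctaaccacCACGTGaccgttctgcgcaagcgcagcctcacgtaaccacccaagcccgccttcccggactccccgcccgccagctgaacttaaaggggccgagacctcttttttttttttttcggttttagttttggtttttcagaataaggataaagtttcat
Ndufa7 (chr17:33824322-33824571, + strand): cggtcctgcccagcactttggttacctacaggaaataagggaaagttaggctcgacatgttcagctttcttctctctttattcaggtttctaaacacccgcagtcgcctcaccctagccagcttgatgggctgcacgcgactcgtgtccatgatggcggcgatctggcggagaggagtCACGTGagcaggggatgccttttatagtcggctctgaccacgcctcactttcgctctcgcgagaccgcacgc
Ndufb3 (chr1:58586147-58586396, + strand): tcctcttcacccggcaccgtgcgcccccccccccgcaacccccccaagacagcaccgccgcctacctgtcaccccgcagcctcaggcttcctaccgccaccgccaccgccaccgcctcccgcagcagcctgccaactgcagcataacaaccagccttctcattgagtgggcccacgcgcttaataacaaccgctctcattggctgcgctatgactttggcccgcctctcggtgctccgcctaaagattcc
Cox6a1 (chr5:115348959-115349208, - strand): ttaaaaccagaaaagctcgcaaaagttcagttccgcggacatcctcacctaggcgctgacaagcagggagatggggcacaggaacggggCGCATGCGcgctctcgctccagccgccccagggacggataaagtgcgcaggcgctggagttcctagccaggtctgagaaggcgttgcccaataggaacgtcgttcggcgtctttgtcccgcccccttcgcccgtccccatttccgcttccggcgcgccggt

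Atpif1 and Ndufa7 held a CACGTG and Ndufb3 none of the 4 motifs, and Cox6a1 held a CGCATGCG. Cox6a1 is 1 of 7 subunit genes with CGCATGCG, and 61 were without it, so it does not stand for the genes that did not pass. Ndufa7 has 2 starts in the table, and the first by coordinate is shown. CGCATGCG was found in 7 of the 73 windows of subunit genes (9.59%) and in 1.55% of all 32851 windows. CACGTG was found in 8 of 73 (11.0%) and 6.02%, CCGGAAGT in 3 of 73 (4.11%) and 2.88%, and AAGATGGCG in 1 of 73 (1.37%) and 0.606%. Subunit genes with CGCATGCG (Atp5g2, Atp5j, Atp5k, Atp5l, Cox6a1, Ndufa11 and Ndufa8) had a median difference of 0.043, and the 61 without it 0.044. The 7 genes with CACGTG, Atpif1 and Ndufa7 among them, had a median of 0.092, and the 61 without it 0.035. For CCGGAAGT the medians were -0.031 over 3 genes with it and 0.044 over 65 without it, and the single gene with AAGATGGCG, Atp5j, was at -0.027. These medians are a description and were not tested. The motifs were chosen from textbook knowledge after the values had been seen, and a match describes letters, not binding.

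Genes that assemble the complexes or feed electrons into them were counted as the wider pathway. Of 45 measured assembly factors, none was higher and 2 were lower in STZ livers (4.44%, where 9.12% of all genes passed), with a median of -0.011. Timmdc1, which builds the membrane arm of complex I, fell from 10.00 ± 0.095 (SD, n = 7) to 9.71 ± 0.11 (SD, n = 6), by 0.29 ± 0.061 (adjusted p = 0.00559 in limma). Cox18, which inserts the mitochondrially made subunit COX2 into the inner membrane, fell from 10.01 ± 0.078 (SD, n = 7) to 9.74 ± 0.14 (SD, n = 6), by 0.27 ± 0.064 (adjusted p = 0.0132 in limma). Both still passed whichever array was left out. Of 16 genes of electron carriers, coenzyme Q synthesis and dehydrogenases that feed the chain, 1 was lower and none higher (6.25%). This was Gpd2, the mitochondrial glycerol-3-phosphate dehydrogenase, with a mean of 9.03 ± 0.058 (SD, n = 7) in controls and 8.32 ± 0.46 (SD, n = 6) in STZ livers. Its difference was -0.71 ± 0.15 (adjusted p = 0.00593 in limma).

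Of the genes encoded in mitochondrial DNA, ND3 of complex I (0.016 ± 0.051) and COX2 of complex IV (0.0031 ± 0.043) were measured and did not pass. Their limits, -0.092 to 0.12 and -0.087 to 0.093, lay inside a 1.2-fold change. Both lay above the 99.6th percentile of all named genes. Of 74 mitochondrial ribosomal protein genes 1 was higher and none lower (1.35%), with a median of -0.018. The gene was Mrpl40 (0.17 ± 0.050), and this call was lost for 11 of the 13 arrays when that array was left out, while the difference stayed at 0.15 to 0.20 in every setting run.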

How the data were processed

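Liver RNA of 7 control and 6 STZ mice was measured on 1 Affymetrix array per mouse. The authors deposited log2 intensities of 35556 probe sets, and the submitters' processing notes name RMA and Expression Console 1.2. The probe annotation they used and its genome build were not given in the sources used here. Gene names came from the platform annotation, which gave 1 symbol for 21789 probe sets, several for 1621 and did not list 12146. Of the 21789, 21698 were found in the RefSeq table, and 0 needed a new symbol. For each of 19938 genes the probe set with the highest mean was used. Groups were compared with limma 3.58.1 (lmFit, eBayes, 2-sided) in R 4.3.3, with Benjamini-Hochberg adjustment over all genes and a threshold of 0.05. Shifts of array means carry limits but no p, since the genes and lists were chosen with earlier results of these data known. Named were the genes that passed, the 4 largest differences, smallest p, brightest and dimmest of each complex, and a list of catalytic and isoform genes. Other names complete a group or a count and were chosen after their values were seen. The labels call the arrays biological replicates and give no batch. The number of arrays limits the precision. The gene test and the limits were tested on simulated data. Alternatives were variance models, array weights, a filter on dim genes, averaged probe sets, further normalization, left-out arrays, a replicate block and an exact rank-sum test, and, chosen after seeing the data, leaving out both arrays numbered 2.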

Additional observations from a re-analysis of the deposited data

Results flagged for a closer look

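Single arrays lay far from the rest of their group (Dixon's test at the 95% level) for 17 of 100 groups of values checked, over the named genes and complex means. Chance flags about 1 in 20. Control replicate 2 gave 11 of the 17. It was the lowest control for Ndufb6 (10.97, others 11.66 to 11.89), Ndufv1 (10.82, others 11.03 to 11.13), Sdha (11.57), Uqcrc2 (12.18), Uqcrfs1 (8.38), Cox4i1 (10.26), Cox7a2 (10.30), Atp5a1 (11.90) and Atp5c1 (11.43). It was the highest control for Ndufs7 (12.50, others 12.16 to 12.30) and Cox6b1 (11.90, others 11.59 to 11.70). The other flags were spread over 5 arrays. Control replicate 1 was low for Ndufa2 (9.36) and Cox6a2 (6.55), and control replicate 6 was high for Uqcrc1 (11.29). Among STZ livers, replicate 2 was low for Cyc1 (10.90), replicate 3 was low for Ndufb6 (11.66) and replicate 4 was high for Cox7b2 (4.44).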

How the results depend on the processing

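The counts of subunit genes with limits inside a 1.2-fold change (58 to 72) or a 1.5-fold change (77 to 83) stayed within 1.5 times the main counts in every alternative run. The count of 77 is out of the 78 subunit genes left by the filter on dim genes. The count of subunit genes that passed was 1 to 3 when an array was left out and 1 in the exact rank-sum test, which called 1088 of all genes against 1819 in limma, and the gene was Atpif1 in each fit with 1 call. Over all genes, leaving out an array gave 1399 to 2168. The replicate numbers did not pair the arrays: deviations of same-numbered arrays correlated at -0.086 to 0.19, and 1 of 6 STZ arrays matched its own number best. With the replicate number as a block, 1 subunit gene and 1256 of all genes passed, and the limits of the shift of complex V left out 0 (0.041, limits 0.0051 to 0.12), while those of the other complexes included it. With the median over genes in place of the mean in each array, the shift was 0.085 (limits 0.018 to 0.16) for all 83 genes, 0.11 (0.0025 to 0.23) for complex I and 0.083 (-0.052 to 0.21) for complex IV; the cause was not tested. Leaving out an array, the shift lay between 0.0099 and 0.042 for all genes, 0.0099 and 0.048 for complex I, 0.032 and 0.073 for complex II, -0.0083 and 0.035 for complex III, -0.0056 and 0.020 for complex IV, and 0.022 and 0.059 for complex V. Arrays give no detection call here, so dim isoforms are the least certain values.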
